A study of Mus musculus with 2 samples.

Results

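Lysosomes are acidic compartments in which proteins, sugars and lipids taken up or discarded by a cell are broken down. Soluble hydrolases carry out the degradation, membrane proteins line and connect the compartment, and a proton pump, the vacuolar ATPase, acidifies it by burning ATP in its cytosolic V1 part and moving protons through its membrane part V0. In granulocytes, mast cells and macrophages, related compartments are enlarged into granules and phagolysosomes. The genes described here are the rows of the deposited table named for 32 listed lysosomal genes or by a symbol that begins with Atp6v0 or Atp6v1. They numbered 55 of the 23235 rows, 32 of them listed genes and 23 pump rows. By role they were 11 proteases, 7 glycosidases, 6 lipid hydrolases and soluble cofactors, 8 membrane proteins, 10 V0 rows and 13 V1 rows.

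RNA was sequenced from a culture of transformed mouse progenitors in which the activity of Hoxa9, a homeobox transcription factor, depended on a drug. Lineage-depleted bone marrow cells of C57B6 mice had been transduced with MIGR1-HA-Hoxa9-ER, in which Hoxa9 is fused to an estrogen receptor domain, and with MIGR1-Flag-Meis1, a retrovirus for its partner Meis1. The growth protocol names the ER fusion, and the sample characteristics name the construct without it. The cells grew in IL3 with 4-hydroxytamoxifen (4OHT), the ligand that keeps the fusion in the nucleus. After washing, the 4OHT group received 100 nM 4OHT for 72 h and the EtOH group received ethanol, the vehicle, for 72 h. Both groups carried both retroviruses and IL3, so the groups differed in the ligand and not in Meis1. Since the ligand acts on the fusion protein, Hoxa9 RNA does not check the labels. How many mice or clones the culture came from is not given in the labels.

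Each group was 1 sample that joined 2 biological replicates, and the table gave 1 FPKM value per gene and group, that is, fragments scaled to transcript length and to the number of mapped fragments. FPKM is a level per length, so levels of different genes can be set side by side. No replicate values were at hand, the values below carry no replicate error, and read totals are not given by FPKM, so the depth behind them is unknown. Over all rows FPKM summed to 544802 in 4OHT and 591496 in EtOH, a ratio of 1.09. Changes are log2((EtOH + 1)/(4OHT + 1)) on FPKM, so positive values are higher in EtOH and changes of low genes come out too small. "Rose" and "fell" are used for genes with a q-value, a p-value adjusted over all tested genes, that did not exceed 0.05 in the authors' deposited table. This is the only test available. In bulk RNA, fewer cells of a type and less RNA per cell cannot be told apart.

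Individual lysosomal genes changed in both directions after 72 h without 4OHT, while the group as a whole took up nearly the same share of the summed FPKM. The summed FPKM of all 55 rows was 5316 in 4OHT and 5762 in EtOH, which was 0.976% and 0.974% of all FPKM. Ctsd, at 1045 and 816 FPKM, and Cd63, at 739 and 1185 FPKM, weighed on this sum in opposite directions. Of the 48 members tested, 13 rose and 7 fell, and 28 did not pass. The remaining 7 members were not tested. Over all 11865 tested genes 22.5% were called in the authors' deposited table, 12.0% higher and 10.5% lower, against 27.1% of tested members higher and 14.6% lower. When only genes with 10 FPKM or more in one of the groups were counted, 10 of 44 members were higher against a background of 12.9%, and 7 were lower against a background of 11.4%. All 44 had 10 FPKM or more in both groups. Called changes of at least 1.5 times were found in 10 of the 48 tested members, or 20.8%, and in 17.1% of all tested genes.

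The median change of the 47 members with 1 FPKM or more in one of the groups was 0.16, with quartiles of -0.19 and 0.40, beside -0.06 over the 11022 such genes, with quartiles of -0.25 and 0.18. Lgmn met that minimum only in EtOH. The members were abundant as a group, since their median level lay at percentile 87.7 of those genes, and 14 members in 4OHT and 17 in EtOH had at least 100 FPKM. Among the 44 members of at least 10 FPKM, called rises ranged from 1.32 to 2.39 times and called falls from 1.29 to 1.87 times. The largest of these rises was that of the pseudogene row Atp6v0c-ps2, described below, and the next was Ctsh at 2.07 times.

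Markers of several blood cell types differed between the groups beside the lysosomal genes. The samples are labelled as hematopoietic progenitor cells. All 9 progenitor markers were at 1 FPKM or more in at least 1 condition, and 3 rose (Ptprc, Gata2 and Spn) and 3 fell (Cd34, Flt3 and Sox4). Cd34 went from 124 to 45.8 FPKM and Gata2 from 71.1 to 122 FPKM, and the list summed to 627 and 654 FPKM. Of 10 late neutrophil markers 10 rose, and their sum went from 221 to 16458 FPKM. Of 7 eosinophil markers 6 rose, with a sum of 134 and 4693 FPKM, and of 10 mast cell and basophil markers 8 rose, with a sum of 1312 and 5104 FPKM. Of 15 macrophage and monocyte markers 6 rose and 1 fell, with a sum of 255 and 164 FPKM, most of it Emr1, which fell from 202 to 102 FPKM. Ms4a7 was listed at 0 in 4OHT and Ly86 in EtOH, and 7 of the 15 were under 1 FPKM in both conditions. Of 9 osteoclast markers Calcr and Tm7sf4 (now Dcstamp) were listed at 0 in both conditions. Of this list Mmp9 and the member Atp6v0d2 rose, and the sum was 17.5 and 17.8 FPKM, or 17.3 and 17.03 FPKM without the members Ctsk and Atp6v0d2. Dendritic cell markers summed to 36.3 and 24.0 FPKM, and lymphocyte markers to 0.0535 and 0.117 FPKM. The part of these cell types in the changes of the lysosomal genes was not tested.

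**Figure D1:**
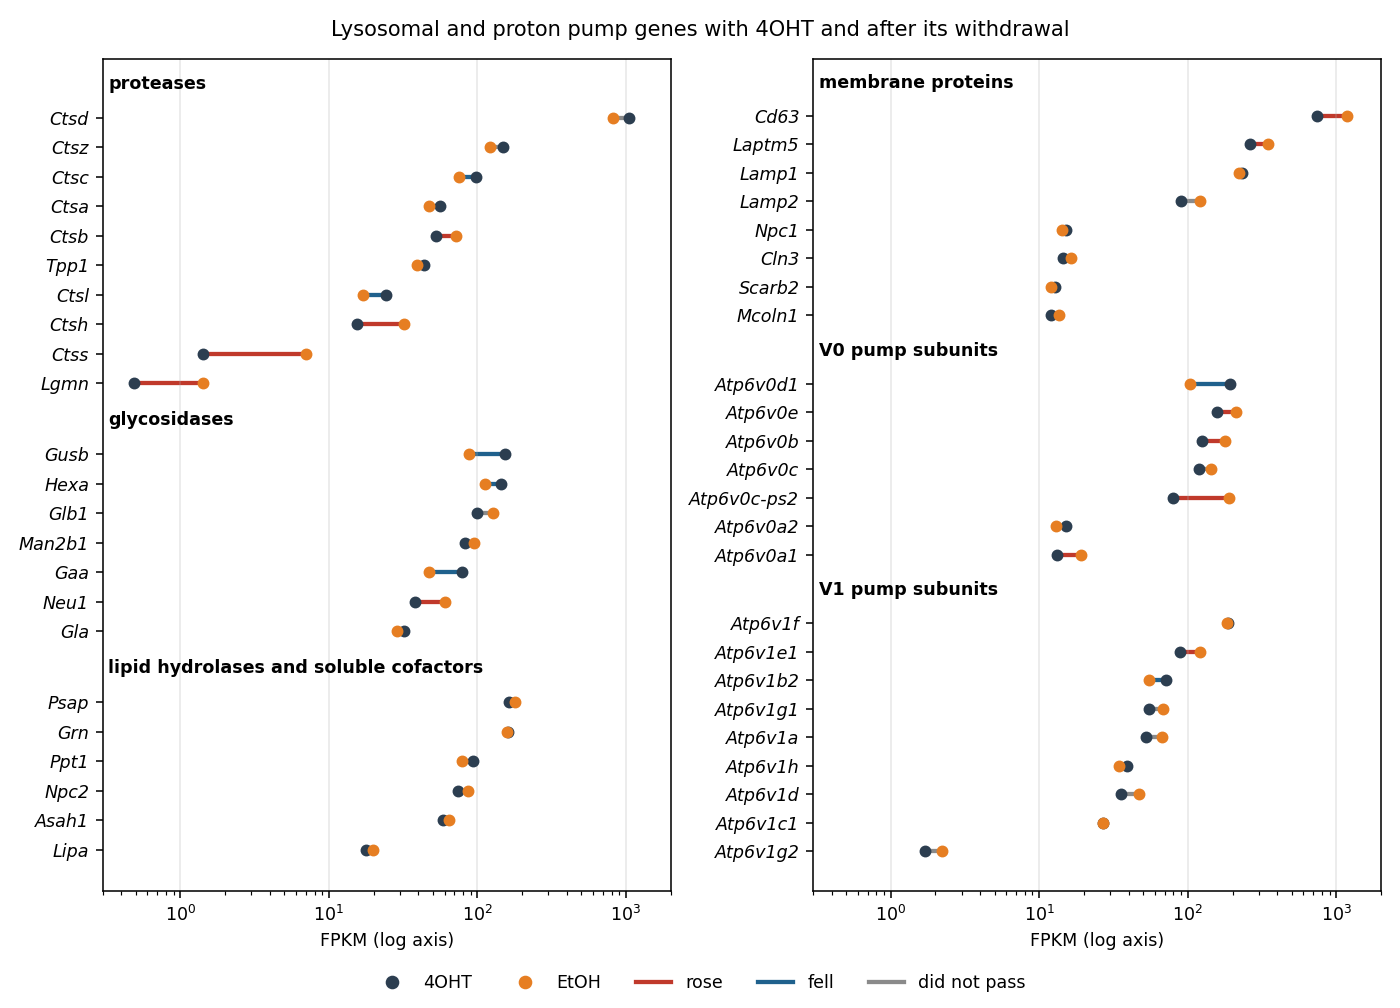
FPKM of the 47 members of at least 1 FPKM (log axis), by role, with the 4OHT value in dark and the EtOH value in orange, joined by a red line where the gene rose, blue where it fell and grey where it did not pass. Ctss (1.43 and 7.01 FPKM) has the longest line, while Ctsd and Cd63 lie far to the right of the other members in both conditions.

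Calls went both ways in 4 of the 6 roles. Proteases had 4 rises and 2 falls among 10 tested, and glycosidases 1 rise and 3 falls among 7. Membrane proteins had 2 rises and no fall among 8. V0 rows had 5 rises and 1 fall among 8 tested, and V1 rows 1 rise and 1 fall among 9. The shares called were 60% of tested proteases, 57.1% of glycosidases, 25% of membrane proteins, 75% of V0 rows and 22.2% of V1 rows. Over all tested genes 12.0% were higher and 10.5% lower, or 22.5% called. None of the 6 lipid hydrolases and cofactors was called. Median changes were -0.20 for proteases, -0.15 for glycosidases, 0.13 for lipid hydrolases and cofactors, 0.17 for membrane proteins, 0.42 for V0 and 0.25 for V1, and these are descriptions with no test of their difference. The summed FPKM of the proteases went from 1484 to 1228 and that of the glycosidases from 626 to 558. For the membrane proteins the sum went from 1378 to 1930, and for the V0 rows from 702 to 855. Single abundant genes weighed on these sums. Without Ctsd the protease sum was 0.94 times as high in EtOH instead of 0.83 times, and without Cd63 the membrane protein sum was 1.17 times instead of 1.40 times as high. Without the pseudogene row Atp6v0c-ps2, described below, the V0 sum went from 623 to 666, or 1.07 times instead of 1.22 times.

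**Figure D2:**
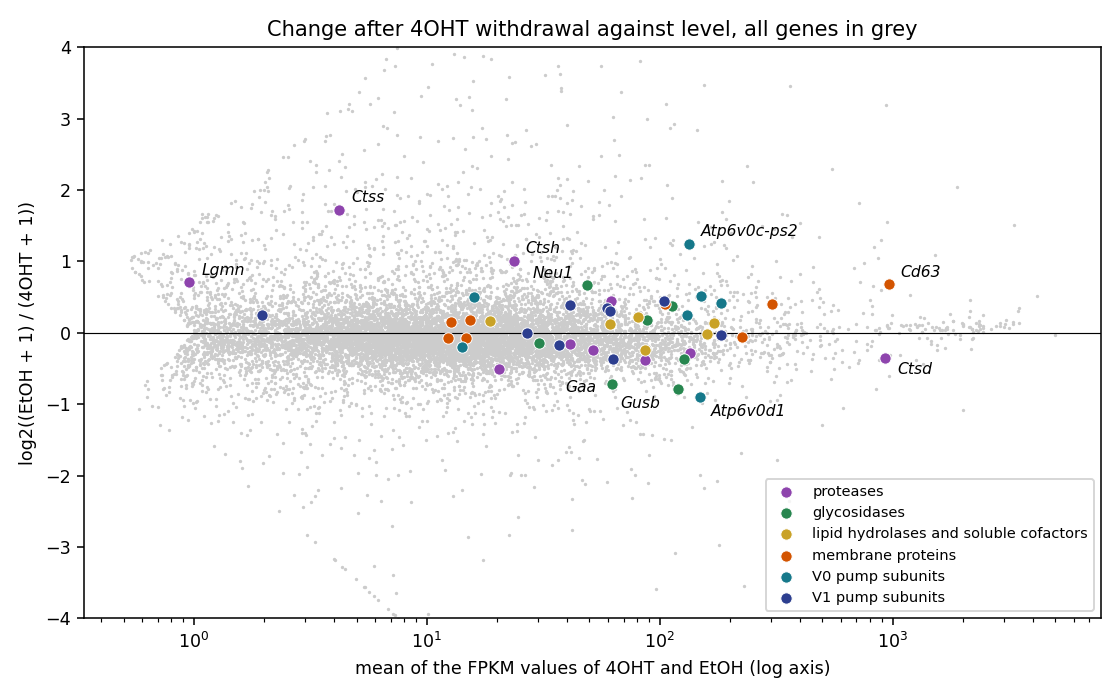
Log2 change (vertical) against the mean FPKM of both conditions (log axis) for 11022 genes in grey and the members in colours by role, with 74 grey genes beyond the vertical limits of 4 log2 units. Of the 44 members of at least 10 FPKM, 35 lie within 0.5 of 0, and Ctss, the highest member, is at 1.72.

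Many lysosomal promoters hold an E-box motif, CACGTG, that basic helix-loop-helix factors of the Tfeb, Tfe3, Mitf and Tfec family can bind. RefSeq promoter sequences (GRCm38.p6, 250 bases before to 50 after the gene start) were matched by symbol for 44 of the 55 members. The extended motif TCACGTG, searched on both strands, was in 13 of these 44 promoters, or 29.5%. It was in 4.29% of all 27025 genes with a promoter and in 7.55% of the 4766 other genes of at least 10 FPKM. The palindrome TCACGTGA, which is part of those matches, was in 8 members, or 18.2%. It was in 1.12% of all genes and in 2.35% of the 4766 other genes of at least 10 FPKM. Of the 13 members with TCACGTG, 3 rose (Atp6v0b, Atp6v0e and Lgmn), 2 fell (Atp6v0d1 and Gaa) and 8 did not pass (Atp6v1a, Cln3, Ctsa, Ctsd, Gla, Glb1, Lamp1 and Mcoln1). The 44 matched promoters belonged to 9 members that rose, 6 that fell, 22 that did not pass and 7 that were not tested. The motif was in 3 of the 9 that rose, 2 of the 6 that fell and 8 of the 22 that did not pass, counts too small to compare. No promoter was matched for Ctsb, Ctsh, Atp6v0c-ps2 and Atp6v0d2, which rose, or for Atp6v1b2, which fell. A match describes the letters in this window and is not a measured binding site.

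The following stretches of 70 bases show the motif in 6 members, 2 that fell, 2 that rose and 2 that did not pass, each read 5′ to 3′ on the gene's strand with CACGTG in capitals. In GRCm38.p6 they lie at chr8:105566053-105566122 (minus strand, Atp6v0d1), chr11:119267791-119267860 (plus strand, Gaa), chr4:117887319-117887388 (minus strand, Atp6v0b), chr17:26676338-26676407 (plus strand, Atp6v0e), chr8:13159092-13159161 (plus strand, Lamp1) and chr2:164833715-164833784 (plus strand, Ctsa). The motif begins 3 bases before the annotated start in Atp6v0d1 and 140 bases before it in Gaa. Lamp1 holds 4 copies within 61 bases of its start, and Atp6v0b and Ctsa hold 2 each. The 6 members were chosen by their calls, so the motif beside opposite calls follows from that choice. Its part in the changes was not tested.
Atp6v0d1: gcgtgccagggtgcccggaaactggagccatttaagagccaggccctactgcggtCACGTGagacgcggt
Gaa: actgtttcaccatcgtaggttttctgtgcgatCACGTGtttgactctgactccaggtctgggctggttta
Atp6v0b: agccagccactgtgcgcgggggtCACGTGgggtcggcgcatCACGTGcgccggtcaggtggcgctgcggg
Atp6v0e: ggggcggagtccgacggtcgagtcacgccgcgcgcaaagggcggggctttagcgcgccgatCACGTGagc
Lamp1: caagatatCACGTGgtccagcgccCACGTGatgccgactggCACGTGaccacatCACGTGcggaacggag
Ctsa: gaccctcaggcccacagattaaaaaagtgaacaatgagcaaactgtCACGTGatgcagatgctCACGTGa

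Among the proteases, the cysteine cathepsins Ctss, Ctsh and Ctsb and the asparaginyl endopeptidase Lgmn rose. Ctss, a protease of antigen-presenting cells that trims the invariant chain of MHC class II, was at 1.43 FPKM in 4OHT and 7.01 FPKM in EtOH. This was a 4.91-fold rise (log2 change 1.72, q = 1.28e-11 in the authors' deposited table). At this low level the log2 change was 2.22 with a pseudocount of 0.1 and 0.90 with a pseudocount of 5. Among the member cathepsins its level stayed low, above only Ctsk. Outside the members, Ctse, Ctsf, Ctso and Ctsw were lower than Ctss in EtOH, with Ctse at 5.62 FPKM. Ctsh, an aminopeptidase, rose from 15.5 to 32.0 FPKM, or 2.07-fold (log2 change 1.00, q = 8.58e-08 in the authors' deposited table). Ctsb, a broadly expressed cathepsin, rose from 52.2 to 71.8 FPKM (log2 change 0.45, q = 0.0236 in the authors' deposited table). Its locus is joined in the table with Fdft1, at 24.1 and 26.6 FPKM. Lgmn, which also processes other cathepsins, rose from 0.488 to 1.43 FPKM (q = 0.00202 in the authors' deposited table). Its log2 change was 0.71, but 1.38 with a pseudocount of 0.1 and 0.23 with a pseudocount of 5.

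Ctss lies on chromosome 3 at 95330708 to 95360325 (mm9), 17.4 kb from Ctsk, the collagen-degrading cathepsin of osteoclasts. Ctsk was not tested, at 0.0448 FPKM in 4OHT and 0.245 FPKM in EtOH. These neighbours, with Lgmn, were the lowest of the 11 proteases in both conditions.

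Ctsl and Ctsc fell. Ctsl, a cysteine endopeptidase, went from 24.2 to 16.8 FPKM (log2 change -0.50, q = 0.0166 in the authors' deposited table). Ctsc, the dipeptidyl peptidase that activates granule serine proteases such as elastase, went from 98.2 to 75.4 FPKM (log2 change -0.38, q = 0.0348 in the authors' deposited table). Both falls were under 1.5 times. The other 4 tested proteases did not pass, and each of them was lower in EtOH. Ctsd, the aspartic protease and the most abundant protease by far, was at 1045 FPKM in 4OHT and 816 FPKM in EtOH (q = 0.155 in the authors' deposited table). A share of 32.4% of its 50-base words also occurs in transcripts of another annotated gene, so its level is less certain. Ctsz, a carboxypeptidase, was at 148 and 121 FPKM, Ctsa, a carboxypeptidase that also stabilises other enzymes, at 56.1 and 47.3 FPKM, and Tpp1, a tripeptidyl peptidase, at 43.3 and 38.9 FPKM.

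Of the 7 glycosidases, Gusb, Gaa and Hexa fell and Neu1 rose. Gusb, beta-glucuronidase, fell from 153 to 88.1 FPKM, which was 1.73-fold lower (log2 change -0.79, q = 2.25e-07 in the authors' deposited table). Gaa, the acid alpha-glucosidase that degrades glycogen, fell from 78.4 to 47.1 FPKM, which was 1.66-fold lower (log2 change -0.72, q = 2.69e-05 in the authors' deposited table). Hexa, the alpha subunit of beta-hexosaminidase, fell from 144 to 112 FPKM (log2 change -0.36), and passed narrowly with q = 0.0434 in the authors' deposited table. Neu1, the sialidase, rose from 37.7 to 60.3 FPKM, or 1.60-fold (log2 change 0.66, q = 3.37e-05 in the authors' deposited table). Besides Glb1, 2 glycosidases did not pass. The alpha-galactosidase Gla was at 31.9 and 28.8 FPKM and the alpha-mannosidase Man2b1 at 82.8 and 94.2 FPKM.

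Neu1 acts in a complex with Ctsa and the beta-galactosidase Glb1. Glb1 was at 98.8 and 128 FPKM and missed the limit (q = 0.0746 in the authors' deposited table). Neu1 made up 19.6% of the summed FPKM of the 3 genes in 4OHT and 25.6% in EtOH, and Ctsa 29.1% and 20.1%. These shares have no test.

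Lipid hydrolases and soluble cofactors showed the narrowest range, with changes between -0.24 and 0.23. Psap, the precursor of the saposins that present lipids to hydrolases, was at 163 and 180 FPKM. Grn, the precursor of the granulins, was at 160 and 158 FPKM. Npc2, which hands cholesterol to Npc1, was at 74.1 and 86.9 FPKM, and Ppt1, the thioesterase that removes palmitate from proteins, at 93.5 and 78.9 FPKM. Asah1, acid ceramidase, had 58.9 and 64.1 FPKM, and Lipa, the acid lipase of cholesteryl esters, 17.6 and 19.9 FPKM. Without a replicate error, a change of this size cannot be placed against the spread between cultures.

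Of the 8 membrane proteins, Cd63 and Laptm5 rose and the rest did not pass. Cd63, a tetraspanin of late endosomes and of granule membranes and a surface sign of basophil activation, rose from 739 to 1185 FPKM. The change was 1.60-fold (log2 change 0.68, q = 0.000231 in the authors' deposited table), and 11.0% of its words also occur in other genes. It became the most abundant of the 55 rows, ahead of Ctsd, which had been first in 4OHT. Laptm5, a lysosomal protein of blood cells, rose from 262 to 347 FPKM (log2 change 0.40, q = 0.0441 in the authors' deposited table). Lamp1, the main glycoprotein of the lysosomal membrane, was at 232 and 222 FPKM. Its relative Lamp2, which also serves chaperone-mediated autophagy, was at 90.6 and 120 FPKM (q = 0.108 in the authors' deposited table). The cholesterol exporter Npc1 was at 15.1 and 14.3 FPKM, the enzyme receptor Scarb2 at 12.7 and 12.05 FPKM, the calcium channel Mcoln1 at 12.0 and 13.5 FPKM, and Cln3 at 14.3 and 16.3 FPKM. These 4 genes had the lowest levels of the group and changes between -0.07 and 0.18.

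**Figure D3:**
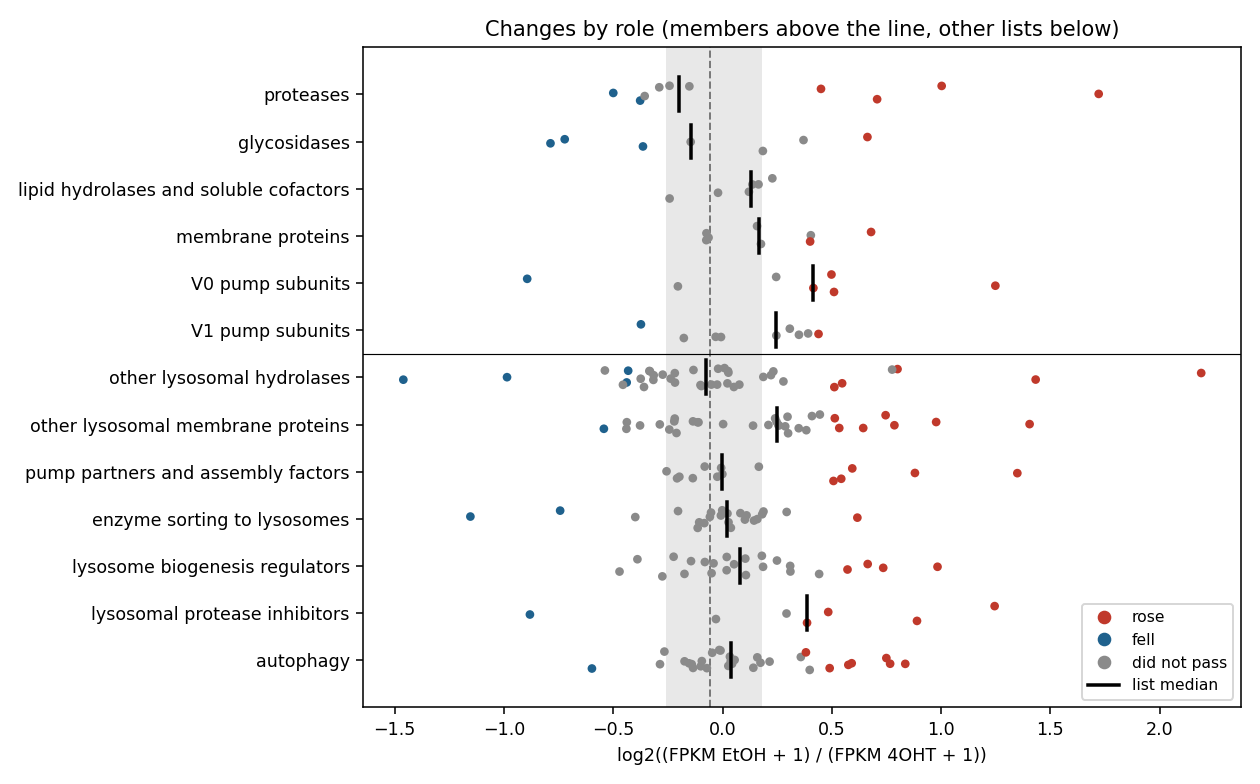
Log2 change of each gene of at least 1 FPKM by role, members above the horizontal line and other lists below it, with red points for genes that rose, blue for genes that fell and grey for the rest. Black bars are list medians, and the grey band spans the quartiles of all genes (-0.25 and 0.18), with their median of -0.06 dashed. The protease and glycosidase medians (-0.20 and -0.15) lie inside the band. To its right lie the medians of V0 (0.42), V1 (0.25), other lysosomal membrane proteins (0.25) and protease inhibitors (0.39).

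In the pump, V0 rows showed the larger changes and they went in opposite directions. Atp6v0d1, the subunit that couples V0 to the central stalk of V1, fell from 193 to 104 FPKM, which was 1.87-fold lower. Its log2 change of -0.89 was the lowest of all members (q = 3.53e-09 in the authors' deposited table). Atp6v0b, a proteolipid of the rotating ring, rose from 124 to 177 FPKM (log2 change 0.51, q = 0.00361 in the authors' deposited table). Atp6v0e, a small subunit of V0, rose from 158 to 211 FPKM (log2 change 0.42, q = 0.0259 in the authors' deposited table).

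The main ring proteolipid, Atp6v0c, cannot be read on its own. The table lists Atp6v0c and its pseudogene Atp6v0c-ps2 at the same locus on chromosome 17 (24300832 to 24306374, mm9), whereas GENCODE M21 places the pseudogene on chromosome 6. The pseudogene shares 90.1% of its 50-base words with other genes, mainly Atp6v0c. The row for Atp6v0c was at 120 and 142 FPKM and did not pass. The row for Atp6v0c-ps2 rose from 79.1 to 189 FPKM (log2 change 1.25, q = 2.92e-08 in the authors' deposited table). How reads were divided between them is not given in the sources used here. Their sum went from 199 to 332 FPKM, or 1.67 times, with no test. Without both rows the V0 median was 0.42 as before, and 12 members rose. Without the pseudogene row alone the V0 median was 0.33.

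The a subunit, which forms the proton path and steers the pump to its compartment, has 4 isoforms. Atp6v0a1 rose from 13.1 to 19.0 FPKM (log2 change 0.50, q = 0.0107 in the authors' deposited table). Atp6v0a2 was at 15.2 and 13.1 FPKM and did not pass, and Atp6v0a4, an isoform of kidney, was listed at 0 in both conditions. The a3 isoform of lysosomes and osteoclasts is named Tcirg1 and so falls outside the symbol pattern. It rose from 36.4 to 67.8 FPKM (log2 change 0.88, q = 7.54e-08 in the authors' deposited table). Tcirg1 made up 56.2% of the summed a isoforms in 4OHT and 67.9% in EtOH, while the share of Atp6v0a2 went from 23.5% to 13.1%. The sum of the a isoforms was 64.7 and 99.8 FPKM. Atp6v0d2, the other d isoform, rose from 0.170 to 0.480 FPKM (q = 0.0473 in the authors' deposited table), just inside the limit. It was still only 0.461% of the summed d isoforms in EtOH, so Atp6v0d1 accounted for nearly all of that subunit in both conditions.

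Of the 13 V1 rows 9 were tested and 2 of these were called, or 22.2%, close to the 22.5% over all tested genes. Atp6v1e1, a subunit of the peripheral stalks, rose from 88.3 to 120 FPKM (log2 change 0.44, q = 0.0153 in the authors' deposited table). Atp6v1b2, the non-catalytic partner in the ATP-burning head, fell from 71.2 to 54.7 FPKM (log2 change -0.37, q = 0.0442 in the authors' deposited table). Its locus is joined with Slc18a1, a transporter gene that fell from 14.0 to 0.426 FPKM, and how far shared reads enter its value was not tested. The catalytic subunit Atp6v1a was at 52.4 and 67.0 FPKM and lay just outside the limit (q = 0.0562 in the authors' deposited table). The rotor subunit Atp6v1d, at 35.6 and 47.1 FPKM, was also just outside it (q = 0.0582 in the authors' deposited table). The rotor subunit Atp6v1f was at 186 and 182 FPKM, Atp6v1c1 at 27.1 and 26.9 FPKM, the regulatory subunit Atp6v1h at 39.2 and 34.5 FPKM, and the stalk subunit Atp6v1g1 at 54.9 and 68.2 FPKM.

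For each V1 subunit with isoforms, nearly all of the summed FPKM came from 1 of them in both conditions. Atp6v1b1, Atp6v1e2 and Atp6v1g3 were listed at 0 in both, and Atp6v1c2 was at 0.0278 FPKM in 4OHT and listed at 0 in EtOH. Atp6v1g2, an isoform of neurons, was at 1.70 and 2.21 FPKM, about 3.01% and 3.14% of the summed G isoforms. In V0, Atp6v0e2 was at 0.0128 FPKM in 4OHT and listed at 0 in EtOH. Of the accessory proteins, Atp6ap2, the prorenin receptor, rose from 87.2 to 124 FPKM (log2 change 0.51, q = 0.00273 in the authors' deposited table). Atp6ap1 was at 104 and 102 FPKM and did not pass.

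**Figure D4:**
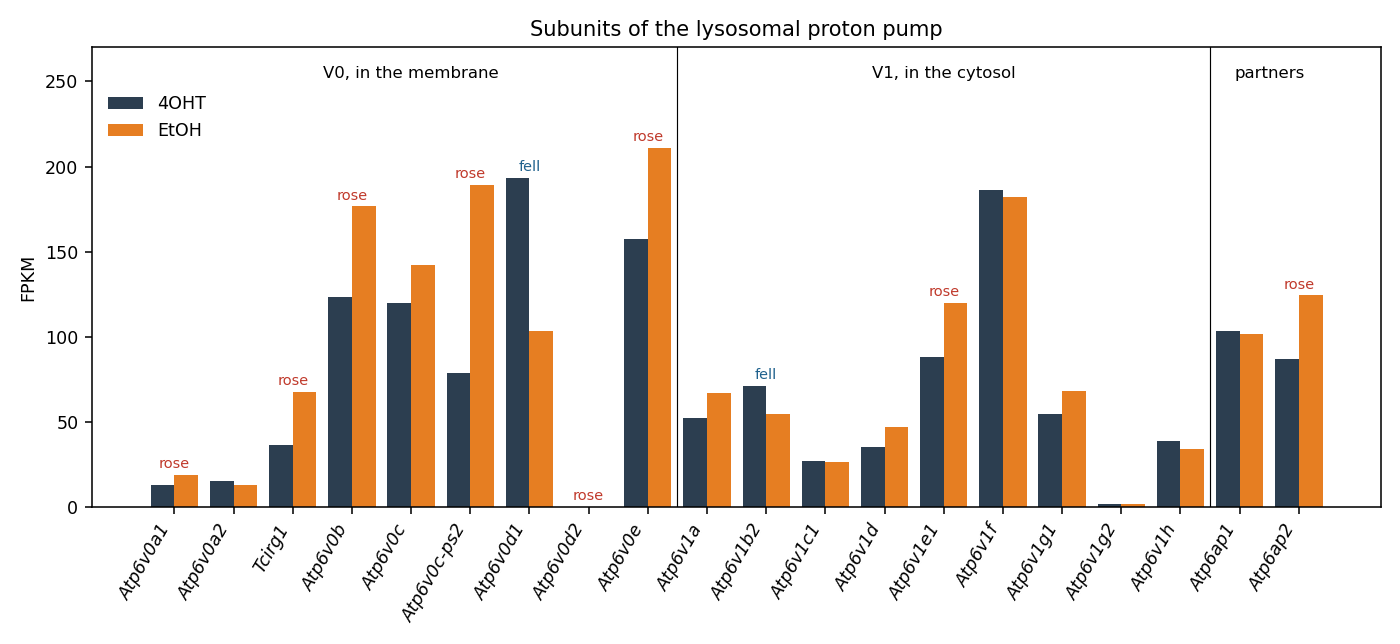
FPKM of the pump subunits and partners, with 4OHT in dark and EtOH in orange, V0 on the left, V1 in the middle and partners on the right, and the calls above the bars. Atp6v0d1 (193 and 104 FPKM) goes down while its V0 neighbours Atp6v0b, Atp6v0e and Tcirg1 go up, and Atp6v0d2 stays at the axis.

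Among 39 other lysosomal hydrolases, all tested, 5 rose and 4 fell, so 23.1% were called, close to the share over all genes, and the median was -0.07. The largest change was in Arsb, a sulfatase of dermatan and chondroitin sulfate, which rose from 22.5 to 106 FPKM (log2 change 2.19). Sgsh, the sulfamidase of heparan sulfate, fell from 11.6 to 3.59 FPKM (log2 change -1.46). Ctse, an aspartic protease of endosomes, rose from 1.45 to 5.62 FPKM (log2 change 1.43), and Siae, a sialic acid esterase, fell from 16.6 to 7.88 FPKM (log2 change -0.99). With Neu1, the sialic acid enzymes thus held a rise and a fall.

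Other lysosomal membrane proteins had 7 rises and 1 fall among 33 tested and a median of 0.25, so 24.2% were called, near the 22.5% over all genes. Cybasc3 (now Cyb561a3), a lysosomal ferric reductase, rose from 18.1 to 49.5 FPKM (log2 change 1.41). Tmem63a rose from 10.7 to 22.1 FPKM (log2 change 0.98), and the cation channel Tpcn1 from 13.7 to 24.3 FPKM (log2 change 0.79). Pump partners and assembly factors had 5 rises and no fall among 14 tested, or 35.7% called against 22.5% over all genes, with a median of -0.0035. Besides Tcirg1 and Atp6ap2 these were Rogdi and Dmxl2, parts of the complex that helps V1 and V0 assemble, and the pump-associated Rnasek. Rogdi rose from 16.6 to 43.9 FPKM (log2 change 1.35), Dmxl2 from 13.8 to 21.3 FPKM (log2 change 0.59), and Rnasek from 105 to 154 FPKM (log2 change 0.54). Rnasek shares 62.4% of its words with another annotated gene.

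Hydrolases reach the lysosome with a mannose 6-phosphate tag, and 23 sorting genes were tested. Gnptab, a subunit gene of the enzyme that starts the tag, fell from 61.8 to 27.2 FPKM (log2 change -1.15). Igf2r, a receptor for the tag, fell from 3.83 to 1.88 FPKM (log2 change -0.74). Sort1, a receptor that sorts without the tag, rose from 18.9 to 29.5 FPKM (log2 change 0.62). The other 20 did not pass, so 13.04% were called against 22.5% over all genes, and the list median was 0.02. Among the 20 were M6pr, the smaller receptor for the tag, at 176 and 195 FPKM, Gnptg, another subunit gene of the tagging enzyme, at 20.4 and 19.2 FPKM, and Nagpa, which uncovers the tag, at 18.0 and 17.9 FPKM. The choice of these 3 was made with their values known.

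Among 24 tested regulators of lysosome formation, 4 rose, with no fall and a median of 0.08. The share called was 16.7%, below the 22.5% over all genes. Tfec, a factor of the family that binds the E-box shown above, rose from 39.7 to 79.5 FPKM (log2 change 0.98, q = 9.5e-10 in the authors' deposited table). It was the most abundant of the 4 family genes in both conditions. Tfeb was at 3.67 and 5.35 FPKM, Tfe3 at 6.68 and 5.34 FPKM, and Mitf at 1.72 and 1.92 FPKM, and none of these passed. Mlst8, a subunit of the mTOR complexes, rose from 6.99 to 12.3 FPKM, and Fnip1 and Fnip2, partners of folliculin, from 9.97 to 15.3 FPKM and from 2.43 to 4.44 FPKM.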

How the data were processed

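RNA-seq of 1 4OHT and 1 EtOH sample was analysed from 1 deposited table of 23235 rows. Per the submitters' processing notes, the tools were CASAVA 1.8.2, Bowtie2 2.0.0.7 and Cuffdiff 2.0.2, with the mm9 build. The annotation, strand setting and library scaling were not given in the sources used here. Per the file headers, the authors deposited FPKM per condition, a p-value and a q-value. The authors' deposited q-values differed by at most 1.7e-06 from p-values adjusted by Benjamini-Hochberg over the 11865 tested rows. With 1 value per condition no test of its own was possible. Calls are those of the authors at q of at most 0.05.

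Computed here with Python 3.11.15 and pandas 2.3.3 were log2 changes with a pseudocount of 1 FPKM, medians over genes that reached 1 FPKM in one of the conditions, and sums. Alternatives were other q limits, folds, pseudocounts, minimums and scalings. The counting steps were tested on simulated data. Members and lists were chosen with earlier results of these data known. Named were all members, up to 4 called genes per other list with the largest change, and, whatever their values, the Tfeb family, Tcirg1, Atp6ap1 and Atp6ap2. Some results that this rule would name are not reported here. Older symbols were matched through a RefSeq table, and 180 list entries were found, while Rnaset2a and Tldc1 were not. Sequence sharing is the percentage of 50-base words in a gene's transcripts that other GENCODE M21 genes also hold, and 6 of 55 members were over 10%. Measured rows overlapped the loci of 9 members. Coordinates are the table's, on mm9, with starts counted from 1, except promoters (GRCm38.p6).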

Additional observations from a re-analysis of the deposited data

How the results depend on the processing

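No paired analysis was possible because each condition had 1 value that joined its replicates, and for the same reason no replicate could be left out. At a q-value of at most 0.01, 7 members were higher and 3 lower, where 9.41% and 6.68% of all tested genes were. With an added change of at least 1.5 times, the counts were also 7 and 3, against 9.89% and 7.23% of all tested genes. At a q-value of at most 0.1, with members of at least 5 FPKM, without overlapping loci, and without the Atp6v0c and Atp6v0c-ps2 rows (chosen after seeing the data), counts stayed within 1.5 times of 13 and 7. At a q-value of at most 0.1, 16 members were higher and 7 lower, where 13.9% and 13.5% of all tested genes were. The 7 lower members were 14.6% of the 48 tested. The other lysosomal lists, with the inhibitors and autophagy genes, held 33 rises and 9 falls among 171 tested genes. These were 19.3% and 5.26%, against 12.0% and 10.5% over all tested genes. For these lists, counts stayed within 1.5 times of 33 and 9 under each of the alternatives run.

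When EtOH values were multiplied so that both groups had equal FPKM sums, the median of all genes with 5 FPKM or more in each group moved from -0.06 to -0.17. The medians became 0.048 for all members, -0.31 for proteases, -0.26 for glycosidases, 0.011 for lipid hydrolases and cofactors, 0.056 for membrane proteins and 0.30 for V0. The glycosidase median was -0.25 without Glb1, whose locus overlaps another row. With no filter on low values the V0 median was 0.29 and the V1 median 0, and with a pseudocount of 5 the V1 median was 0.10. None of these medians turned its sign, though the V1 median reached 0. With the median of all genes set to 0, Atp6v1c1, Atp6v1f and Grn, which did not pass, turned direction. FPKM gives no read totals, so the limit that depth sets on the low genes Lgmn, Ctsk and Atp6v0d2 is unknown.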

Other observations

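Inhibitors that guard against escaped lysosomal and granule proteases were mostly higher in EtOH. Of 7 tested, 4 rose and 1 fell, with a median log2 change of 0.39, against 12.0% higher and 10.5% lower over all tested genes. Cstb, the cytosolic inhibitor of cysteine cathepsins, rose from 98.3 to 234 FPKM (log2 change 1.25). Serpinb6a rose from 6.02 to 12.001 FPKM (log2 change 0.89) and Serpinb1a, an inhibitor of neutrophil elastase, from 296 to 415 FPKM (log2 change 0.48). Serpinb9, the granzyme B inhibitor, fell from 2.82 to 1.08 FPKM (log2 change -0.88).

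Autophagy genes, which deliver cell contents to lysosomes, had 7 rises and 1 fall among 31 tested and a median of 0.04, so 25.8% were called, near the 22.5% over all genes. Atg16l2 rose from 4.94 to 9.61 FPKM (log2 change 0.84), and Atg7, the activating enzyme of the conjugation steps, from 13.5 to 23.7 FPKM (log2 change 0.77). Map1lc3a, a marker protein of the autophagosome membrane, rose from 4.81 to 8.77 FPKM (log2 change 0.75). Vmp1, a membrane protein of early autophagosomes, fell from 50.2 to 32.9 FPKM (log2 change -0.60).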
